A study of Mus musculus with 21 samples.

Results

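The 10 regulators of the epidermal lineage described here are the transcription factors *Trp63*, *Klf5*, *Tfap2a*, *Klf4*, *Ovol1*, *Grhl1*, *Grhl3*, *Gata3*, *Zfp750* and *Prdm1*, measured in sorted mouse keratinocytes that had expressed human p16 for 6 months. They were chosen by gene symbol for their known roles in basal identity or in differentiation, and all 10 were found among the 22050 entries of the expression table. Mice of the p16 group had the genotype K5-rtTA/tet-p16/tet-GFP, in which doxycycline switches on human p16 and GFP in cells that use the keratin 5 promoter. Control mice had the genotype K5-rtTA/tet-GFP and carry the same driver and reporter and received the same doxycycline but lack tet-p16. All mice were males of a mixed FVB, C57Bl and 129sv background and received doxycycline in the drinking water from 3 weeks of age. Each of the 4 samples per group held 80000 GFP+ cells pooled from 3 mice, sorted after removal of CD140a+, CD45+ and CD31+ cells.

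The p63 protein made by *Trp63* holds keratinocytes in the epidermal lineage and sustains the proliferating basal layer, together with AP-2 factors. As basal cells leave the basement membrane, Klf4, the grainyhead factors, Ovol1, Gata3, Zfp750 and Blimp1, the product of *Prdm1*, restrain proliferation and activate genes of the cornified envelope and the lipid barrier. Zfp750 is itself a target of p63, and it acts with Klf4 and chromatin regulators at differentiation genes. Several of these factors also act in the hair follicle and the sebaceous gland, whose outer cells use the keratin 5 promoter as well.

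Between 1760953 and 3414362 reads per control sample and between 2884544 and 3202975 per p16 sample lay on genes, and control replicates 2 and 4 had the fewest. Values are reads scaled by each library's size factor and are called normalized values here. The human p16 transgene was at 0.7 to 2.5 in control samples and at 1.6, 10.1, 16 and 7.4 in p16 replicates 1 to 4, so the library labelled p16 replicate 1 did not stand apart from the controls in its transgene. The sorted cells held the keratinocyte markers at high level, with *Krt5*, *Krt14*, *Krt15*, *Itga6*, *Itgb4* and *Col17a1* summing to between 31173 and 52262, whereas 4 fibroblast markers without *Dcn* summed to at most 21.4, 4 immune markers without the MHC class II genes to at most 7.10, 3 endothelial markers to at most 6.40 and 4 melanocyte markers to between 13.9 and 409. The most abundant genes did not scale with depth. No gene had more than 12279 reads in a sample, and *Krt5* had 11761 to 12279 in all 8 libraries. In the 43 genes with a mean of over 6000 reads, control replicates 2 and 4 had normalized values higher than those of control replicates 1 and 3 by a median of 0.37 on the log2 scale, against 0.14 at 3000 to 6000 reads and 0.01 at 1000 to 3000. The lineage regulators had at most 3408 reads in a sample and means below 3000. *Gata3* alone passed 3000 reads, in every p16 sample (3009 to 3408) and in no control (1467 to 2996). Of 12782 genes tested with limma on log2(normalized value + 1), 493 (3.86%) passed an adjusted p of 0.05, 159 (1.24%) being higher and 334 (2.61%) lower in p16 samples.

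None of the 10 lineage regulators passed the test, against 3.86% of all tested genes. At an unadjusted p under 0.05 limma found 1 of the 10, *Zfp750*, where 15.9% of all genes met that mark. The edgeR test of recovered reads also called 0 of the 9 members it tested, with *Zfp750* alone under an unadjusted 0.05 (2 without its filter on low counts), and DESeq2 called 0 of 10, with *Zfp750*, *Klf5* and *Gata3* under it. The fold changes were small, as were those of most genes. Their median was 0.10 on the log2 scale for the 10 regulators and 0.00 for all genes. The median absolute log2 fold change was 0.15 for the regulators and 0.18 for all genes. Of the 10, 9 lay within 0.3 of no difference, as did 69.0% of all genes. Within 0.1 lay 2 of the 10 and 32.0% of all genes. The 95% interval of the difference stayed within 1 log2 unit for 9 regulators and within 0.5 for 6 of them, so that a change of 2-fold lay outside the interval for each of them but *Prdm1*. In 7 of the 10 the p16 mean was the higher one on the log scale, and in *Grhl1*, *Zfp750* and *Prdm1* the lower one.

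**Figure D1:**
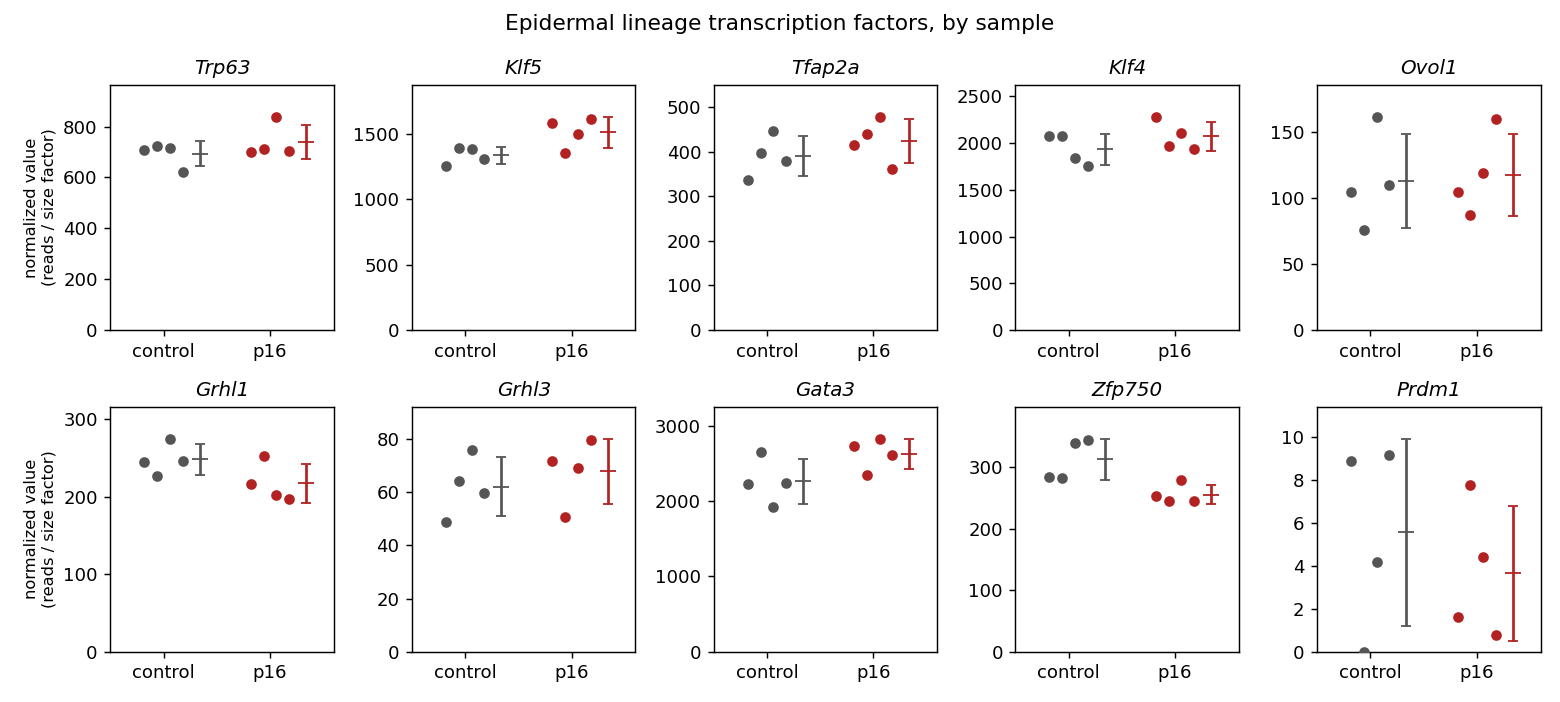
Normalized values (reads divided by a size factor, vertical axis from 0) of the 10 regulators in the 4 control (grey) and 4 p16 (red) samples, replicates 1 to 4 from left to right, with the mean and SD beside them. The groups overlap for every gene but *Zfp750*, whose p16 samples reach at most 278.4 while its control samples start at 282.3.

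Among the regulators of basal identity, *Trp63* (chr16:25683763-25892102 in GRCm38, plus strand) was at normalized values of 707.7, 725.1, 717.4 and 620.3 in the control samples, in the order of their replicate numbers, and of 699.6, 709.7, 837.9 and 703.0 in the p16 samples. Of the p16 samples 3 lay inside the control range, and p16 replicate 3 was above it. The means were 693 ± 48.7 and 738 ± 67.0 (SD, n = 4), a log2 fold change of 0.09 (SE 0.09, 95% interval -0.11 to 0.29, limma adjusted p = 0.726). The annotation gives this gene 8 coding transcripts with 3 distinct starts and 5 distinct 3′ ends, which encode p63 proteins with and without the transactivation domain and with different tails. The table holds 1 value for all of them, so a shift between p63 isoforms could not be measured.

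*Klf5* (chr14:99298691-99315036, plus strand), a Krüppel-like factor of proliferating basal cells, was at 1253.7, 1395.0, 1386.4 and 1312.4 in control samples and at 1584.7, 1352.3, 1500.2 and 1616.5 in p16 samples. In 3 of the 4 p16 samples it was above the highest control. The mean was 13.2% higher in p16 samples (1337 ± 66.7 against 1513 ± 118), with a log2 fold change of 0.18 (SE 0.09, interval -0.02 to 0.37, limma adjusted p = 0.360, exact permutation p = 0.0857).

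*Tfap2a* (chr13:40715302-40738376, minus strand) encodes AP-2α, which acts beside p63 at epidermal enhancers. Its values were 336.8, 396.6, 445.2 and 378.9 in control samples and 415.8, 440.3, 477.9 and 361.8 in p16 samples, so that the groups overlapped over most of their range. The log2 fold change was 0.12 (SE 0.11, interval -0.12 to 0.36, adjusted p = 0.673). Melanocytes also use this factor, and the summed level of 8 melanocyte markers was 138 to 549 in control and 51.7 to 148 in p16 samples. The part of those cells in the *Tfap2a* values was not tested.

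Among the regulators of differentiation, *Klf4* (chr4:55527143-55532466, minus strand), a barrier factor of suprabasal cells, was at 2074.9, 2073.9, 1839.9 and 1752.4 in control samples and at 2281.1, 1969.1, 2111.1 and 1940.4 in p16 samples. Only p16 replicates 1 and 3 were above the highest control, and the means (1935 ± 165 and 2075 ± 156) differed by less than 1 SD of either group. The log2 fold change was 0.10 (SE 0.10, interval -0.10 to 0.31, adjusted p = 0.682).

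*Gata3* (chr2:9857078-9890034, minus strand), which acts in barrier lipid synthesis and in the inner root sheath of the hair follicle, showed the largest positive difference of the set. It was at 2222.5, 2656.5, 1926.0 and 2241.3 in control samples and at 2724.9, 2349.3, 2818.7 and 2612.2 in p16 samples. Control replicate 2 was above 2 of the p16 samples, and the other controls were below all of them. Its reads were below 3000 in every control and above 3000 in every p16 sample, near the range where values did not scale with depth. The bearing of this on its difference was not tested. The means differed by 16.1% (2262 ± 300 and 2626 ± 203), a log2 fold change of 0.22 (SE 0.11, interval -0.01 to 0.45, limma adjusted p = 0.336, exact permutation p = 0.0857). *Gata3* is known in other cells too, among them T cells, although the sort removed CD45+ cells. The sum of 4 inner root sheath keratins was 16.7 to 79.4 in control and 12.3 to 41.4 in p16 samples, and 8 T cell markers without *Thy1* summed to 10.6 to 18 in control and 4.50 to 15.6 in p16 samples. Their part in the *Gata3* values was not tested, and in pooled cells fewer cells of a type and less RNA per cell cannot be told apart.

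*Zfp750* (chr11:121510978-121519333, minus strand) was the only regulator whose groups did not overlap, as 9.83% of all tested genes did not. Its values were 283.4, 282.3, 339.1 and 343.8 in control samples and 252.7, 245.2, 278.4 and 244.2 in p16 samples. The gap between the groups was narrow, since the highest p16 sample lay just under the lowest control. The mean was 312 ± 33.9 in control and 255 ± 16 in p16 samples, a change of -18.3% and a log2 fold change of -0.29 (SE 0.10, interval -0.51 to -0.06). With limma the unadjusted p was 0.0155 and the adjusted p 0.173, and 1140 genes had a p at least as small. The exact permutation p of 0.0286 is the smallest that 4 against 4 samples allow. Under the 17 other settings tried, which include each sample left out and both count tests, its log2 fold change stayed between -0.33 and -0.24, and its adjusted p between 0.136 and 0.382. *Zfp750* lies opposite to *Tbcd*, a tubulin cofactor gene, but no *Tbcd* exon lies in its last exon, and *Tbcd* was at 131 ± 13.6 and 133 ± 18.7.

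The grainyhead factors of the set had differences of opposite sign, neither past the test. *Grhl1* (chr12:24572283-24617391, plus strand), a regulator of desmosomal cadherin genes, was at 244.8, 227.2, 274.8 and 246.0 in control samples and at 215.9, 253.0, 202.2 and 197.3 in p16 samples. Of the p16 samples 3 were below every control, and p16 replicate 2 was above 3 of the controls. The log2 fold change was -0.20 (SE 0.11, interval -0.43 to 0.04, adjusted p = 0.421).

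*Grhl3* (chr4:135541888-135573630, minus strand), which acts in barrier formation and wound closure, was at 49.0, 64.2, 76.0 and 59.6 in control samples and at 72.0, 50.7, 69.2 and 79.8 in p16 samples, with wide overlap. Its log2 fold change was 0.12 (SE 0.18, interval -0.26 to 0.51, adjusted p = 0.817). The log2 ratio of *Grhl3* to *Grhl1* within a sample averaged -1.99 ± 0.22 in control and -1.67 ± 0.43 in p16 samples, a difference of 0.32 (exact permutation p = 0.200, adjusted over 3 ratios 0.600). Without p16 replicate 2 it was 0.53, the largest difference with any 1 sample left out (exact permutation p = 0.0286, not adjusted over the 3 ratios). This p is the smallest that the remaining samples allow. The ratios of *Klf4* to *Klf5* and of *Klf4* to *Trp63*, which set a differentiation factor against a basal one, differed between groups by -0.08 and 0.01 (adjusted exact permutation p = 0.771 and 0.971).

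*Ovol1* (chr19:5549136-5560646, minus strand), a zinc finger factor that favours the exit from proliferation, varied among samples more than counting would give. It was at 104.6, 75.7, 161.2 and 110.0 in control samples and at 104.7, 86.7, 118.8 and 159.5 in p16 samples. The coefficient of variation was 31.5% in control and 26.4% in p16 samples, where counting error alone gives 10.4% and 8.55%, and the highest and the lowest sample were both controls. The log2 fold change was 0.07 (SE 0.22, interval -0.39 to 0.53, adjusted p = 0.920), and it turned to -0.10 without control replicate 2 and to -0.09 without p16 replicate 4. A pseudogene, *Gm31166*, has an exon opposite to the last exon of *Ovol1*.

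*Prdm1* (chr10:44437177-44528501, minus strand) encodes Blimp1, a repressor found in differentiating keratinocytes and in the sebaceous gland. It had only 12, 0, 5 and 6 reads in control samples and 2, 10, 5 and 1 in p16 samples, so that neither group was above the limit of detection throughout. The log2 fold change of -0.31 (SE 0.70, interval -1.81 to 1.19, adjusted p = 0.893) leaves changes of more than 2-fold in either direction inside its interval, and a difference was not detectable at this depth. The sum of 14 sebaceous gland genes was 2495 to 2911 in control and 890 to 1408 in p16 samples, and its bearing on the *Prdm1* reads was not tested.

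Across the 9 regulators other than *Prdm1*, the median distance of a sample from the control means was between -0.06 and 0.13 on the log2 scale in control samples and between 0.02 and 0.17 in p16 samples. These ranges overlapped, and no library stood apart for the set as a whole. The spread between samples was close to counting error for *Grhl1* in control samples (7.94%, counting 6.70%) but not in p16 samples (11.6%, counting 6.19%), and several times larger for *Gata3* in control samples (13.3%, counting 2.20%).

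The regulators' paralogues were measured in the same libraries, and 2 of the 19 tested passed, 1 in each direction. *Trp73*, the p63 relative with roles in multiciliated cells and neurons, was at 83.1, 86.0, 64.3 and 70.3 in control samples and at 124.7, 117.1, 164.0 and 130.7 in p16 samples. Each p16 sample was above each control, and the log2 fold change was 0.81 (SE 0.14, interval 0.50 to 1.12, limma adjusted p = 0.00547). The call was kept with each sample left out in turn, at an adjusted p of at most 0.0214, and was lost with replicate 3 of both groups left out (0.0610). The log2 ratio of *Trp73* to *Trp63* was -3.46 to -3.06 in control and -2.59 to -2.35 in p16 samples, a pair set side by side after its values were seen.

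*Gata6*, a GATA factor of the upper hair follicle and the sebaceous duct, was at 255.2, 223.3, 291.5 and 262.8 in control samples and at 147.1, 215.5, 140.1 and 93.7 in p16 samples. It fell in p16 samples by 0.84 on the log2 scale (SE 0.19, interval -1.25 to -0.43, adjusted p = 0.0226), whereas *Gata3* had its difference on the other side of 0. The call was lost without control replicate 1, 3 or 4 and without p16 replicate 1 or 3, with an adjusted p of at most 0.0735. It was also lost with replicate 3 of both groups left out (0.147) and with control replicates 2 and 4 left out (0.111). The AP-2 genes *Tfap2c* and *Tfap2b* separated without overlap in opposite directions, where 9.83% of all tested genes did not overlap, and neither passed with limma. *Tfap2c* was at 462 ± 54.8 and 605 ± 51.2 (limma adjusted p = 0.0570). It was called by DESeq2 (0.0236), by edgeR without a filter (0.0425), under total count scaling (0.0328) and without control replicate 2 (0.0386) or p16 replicate 2 (0.0424). *Tfap2b* was at 406 ± 89.9 and 294 ± 22.0 (limma adjusted p = 0.0951) and was called by edgeR without a filter (0.0477). *Grhl2* (137 ± 12.2 and 134 ± 10.6), *Ovol2* (89.2 ± 15.5 and 101 ± 10.4) and *Trp53* (441 ± 20.6 and 479 ± 18.2) did not pass.

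**Figure D2:**
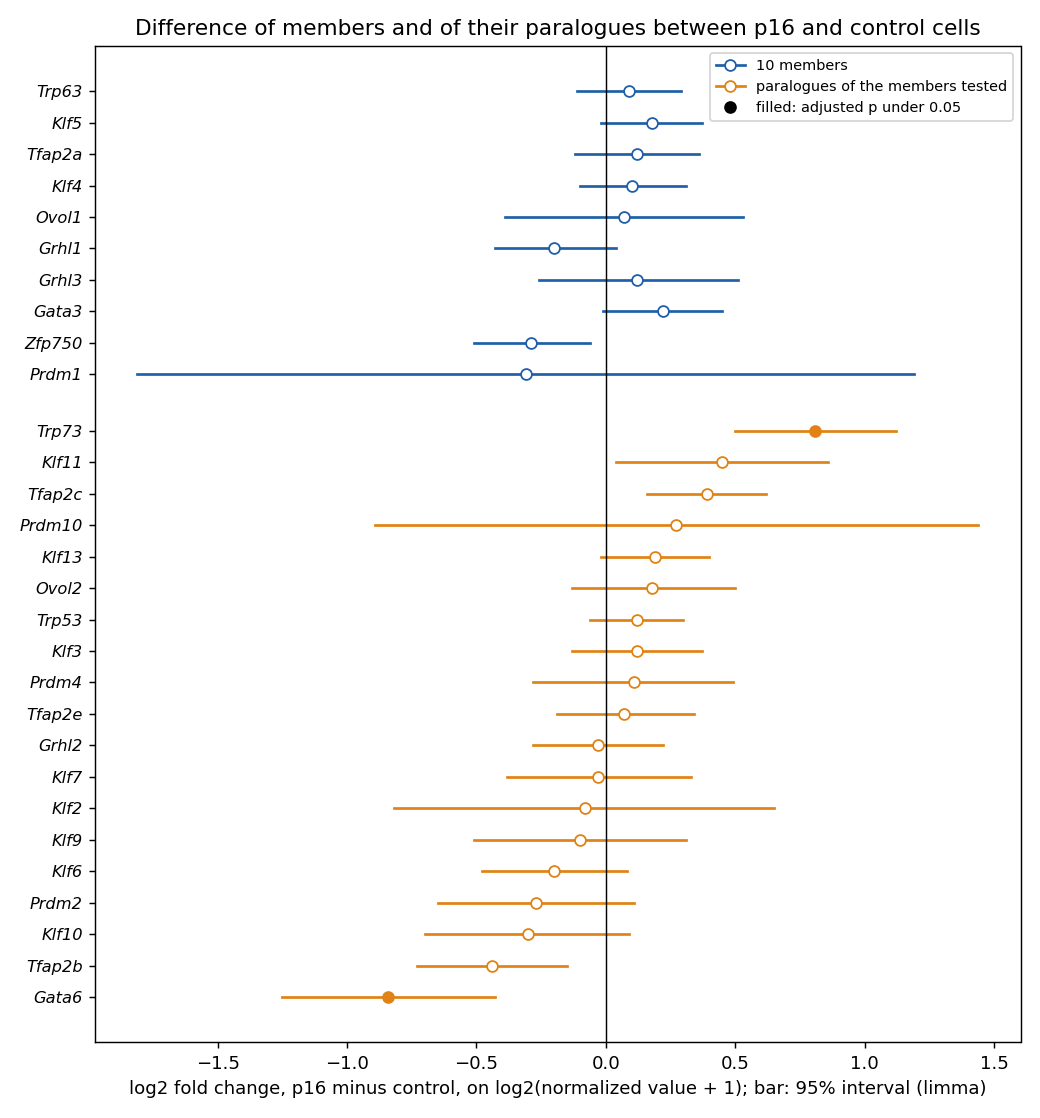
Log2 fold change of the 10 regulators (blue) and of the 19 tested paralogues (orange), p16 minus control on log2(normalized value + 1), with the 95% interval from limma and filled points for an adjusted p under 0.05. All blue points are open and lie between -0.31 and 0.22, and the filled points are *Trp73* at 0.81 and *Gata6* at -0.84.

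Of 44 other transcription factors known in the epidermis and its appendages, 1 rose and 4 fell, where 3.86% of all tested genes passed. Their median log2 fold change was 0.00. At an unadjusted p under 0.05 limma found 18 of the 44 (5 higher, 13 lower), where 15.9% of all genes met that mark. The smallest p was that of *Id2*, an inhibitor of bHLH factors, which stood at 354.6, 240.0, 243.9 and 301.0 in control samples and 72.0, 76.5, 78.0 and 67.4 in p16 samples. The groups were far apart, with a log2 fold change of -1.92 (SE 0.14, adjusted p = 3.73e-06). *Id1*, of the same family, fell from 539 ± 100 to 340 ± 44.8 (adjusted p = 0.0135, and 0.0547 without control replicate 1). *Pparg*, the nuclear receptor of sebocytes, fell from 46.1 ± 7.17 to 9.75 ± 8.81 (adjusted p = 0.00545).

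*Cebpb*, a bZIP factor of early differentiation, fell from 913 ± 56.7 to 684 ± 88.4 (adjusted p = 0.0339). Only 2 of the 8 fits with a sample left out, those without p16 replicate 3 or 4, kept its call. The adjusted p reached 0.135 in these fits and 0.244 with control replicates 2 and 4 left out. *Pou2f3*, a POU factor of suprabasal cells, rose from 150 ± 18.1 to 226 ± 30.7 (adjusted p = 0.0200). Its call was lost without control replicate 1 or 4 and without p16 replicate 1 or 3, where the adjusted p was at most 0.0817. It was also lost with replicate 3 of both groups left out (0.0977) and with control replicates 2 and 4 left out. Over all settings the adjusted p reached 0.111. Without p16 replicate 1, 3 of these factors were called, all lower, and without control replicate 1, 2 were called.

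None of 24 chromatin regulators and cofactors that work with these factors passed with limma, edgeR or DESeq2. At an unadjusted p under 0.05 there were 3 with limma (2 higher, 1 lower) and 2 each, both higher, with edgeR and DESeq2. *Rcor2*, a corepressor, was at 17.9 ± 3.45 and 30.1 ± 6.78 (limma adjusted p = 0.136, and 0.0498 without p16 replicate 4), and *Hdac1*, a histone deacetylase, at 45.5 ± 3.57 and 30.2 ± 17.5 (adjusted p = 0.263).

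Among 26 basal genes linked to p63, 1 rose and 1 fell, with a median log2 fold change of 0.08. *Itga3*, an integrin subunit of the basement membrane, rose from 815 ± 51.9 to 1262 ± 197 (log2 fold change 0.62, adjusted p = 0.00469, at most 0.0190 with a sample left out, and 0.0734 with control replicates 2 and 4 left out). *Krt15*, a keratin of basal and bulge cells, fell from 10624 ± 2454 to 7066 ± 546 (adjusted p = 0.0463). Its call was lost without control replicate 2 or 4 and without p16 replicate 1, 2 or 3, at up to 0.128. It was also lost with replicate 3 of both groups left out and with control replicates 2 and 4 both left out. A pseudocount of 0.1 and no filter on low values lost it too, and over all settings the adjusted p reached 0.308. Its reads, 7452 to 11381, are in the range where values did not scale with depth.

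*Krt5*, whose promoter drives the transgenes, was at 9045.9, 15451.6, 10080.8 and 17968.5 in control samples and at 9748.2, 9476.9, 10856.3 and 10095.9 in p16 samples. The high values were those of control replicates 2 and 4, the libraries with the fewest reads, and *Krt14* was highest in the same samples. As the reads themselves hardly varied, at 11761 to 12279 for *Krt5* and 10186 to 12146 for *Krt14*, the normalized values of these genes followed the size factors. Their log2 fold changes (-0.33 for *Krt5* and -0.23 for *Krt14*) are therefore not read as differences between the groups. The integrin gene *Itgb4* was at 734 ± 45.3 and 961 ± 176 (adjusted p = 0.104, and 0.0491 without p16 replicate 2).

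Genes of differentiation passed in both directions, 4 higher and 5 lower of the 30 tested, with a median log2 fold change of 0.02. *Lor*, which encodes loricrin of the late cornified envelope, was at 152.8, 47.5, 95.2 and 71.8 in control samples and at 188.7, 426.3, 179.1 and 416.9 in p16 samples. It rose by 1.72 on the log2 scale (SE 0.33, adjusted p = 0.00951, but 0.142 with control replicates 2 and 4 left out). *Tgm3*, a transglutaminase that crosslinks envelope proteins, rose from 39.1 ± 20.6 to 153 ± 65.9 (2.01, adjusted p = 0.00588), and *Ptgs1*, a cyclooxygenase, from 146 ± 13.2 to 225 ± 23.6 (0.62, adjusted p = 0.00736). With control replicates 2 and 4 left out these were at 0.0572 and 0.0652, and *Ptgs1* was at 0.0535 with replicate 3 of both groups left out.

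*Krt2*, a late suprabasal keratin, was at 0.7, 5.1, 1.7 and 4.6 in control samples and at 5.6, 14.8, 11.5 and 49.3 in p16 samples. Its control values rest on few reads and its call (adjusted p = 0.0476) was kept in only 2 of the 8 fits with a sample left out, those without control replicate 2 or p16 replicate 1, with an adjusted p of up to 0.153.

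The genes that fell encode other envelope, protease and stress-linked proteins. *Ivl*, the gene of involucrin, was at 46.0, 42.4, 58.5 and 45.8 in control samples and at 15.2, 32.8, 26.6 and 18.9 in p16 samples, each below each control. It fell by 1.06 on the log2 scale (SE 0.24, adjusted p = 0.0215), and its call was lost without control replicate 1 or 3 and without p16 replicate 1, at up to 0.0730. The call was also lost with replicate 3 of both groups left out (0.0976) and with control replicates 2 and 4 left out. *Klk7*, a protease of desquamation, fell from 803 ± 184 to 253 ± 50.0 (adjusted p = 8.49e-05), *Calml3*, a calmodulin-like gene, from 714 ± 186 to 273 ± 43.5 (0.000538), *Sprr1a*, a small proline-rich envelope gene induced by stress, from 903 ± 291 to 405 ± 35.6 (0.00225), and *Sbsn*, the gene of suprabasin, from 1052 ± 335 to 536 ± 27.6 (0.00905, and 0.0544 without replicate 3 of both groups).

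*Krt1* and *Krt10*, the keratin pair of suprabasal cells, did not pass with limma. *Krt1* was at 1445.8, 1205.1, 2093.8 and 1643.9 in control samples and at 2070.9, 1781.7, 2604.1 and 3008.5 in p16 samples, with a log2 fold change of 0.57 (interval 0.20 to 0.94, limma adjusted p = 0.0952). It was called by DESeq2 (0.0418), by edgeR without a filter (0.0347) and by limma without control replicate 3 (0.0408) or p16 replicate 2 (0.0391). *Krt10* was at 3285 ± 228 and 3682 ± 876 (adjusted p = 0.721). *Tgm1* stayed near the detection limit, with a highest value of 7.4 in control and 4.1 in p16 samples.

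**Figure D3:**
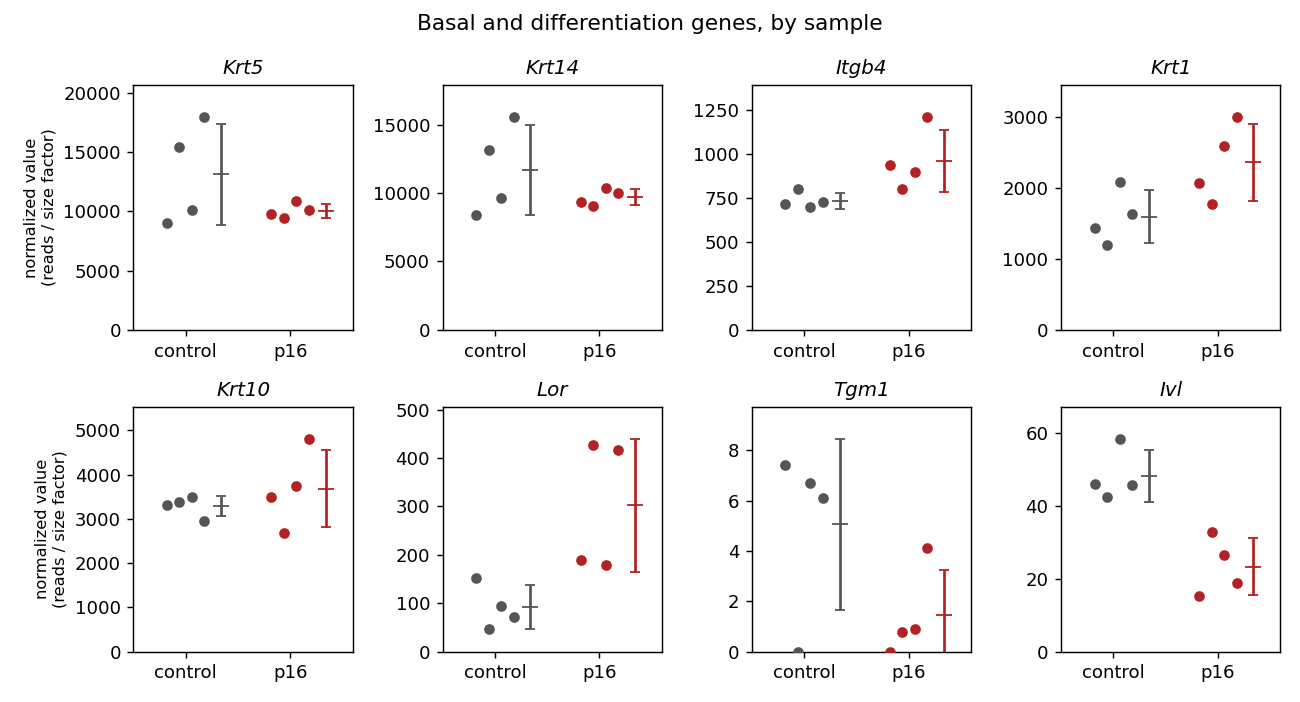
Normalized values (vertical axes from 0) of 8 genes of the basal and differentiated layers in the 4 control (grey) and 4 p16 (red) samples, replicates 1 to 4 from left to right, with the mean and SD. *Lor* lies higher and *Ivl* lower in every p16 sample than in any control, while *Krt5* and *Krt14*, whose reads hardly varied between libraries, are highest in control replicates 2 and 4, the libraries of lowest depth.

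With every sample in the limma fit, genes of the appendages passed the test in 1 direction. Of 21 hair follicle genes 10 fell and none rose, with a median log2 fold change of -0.74 where all genes have 0.00. The bulge marker *Cd34* was at 238.9, 174.5, 121.9 and 140.6 in control samples and at 8.8, 14.1, 8.0 and 16.4 in p16 samples. This was a log2 fold change of -3.74 (SE 0.25, adjusted p = 3.27e-06), and no p16 sample came near the lowest control. The bulge regulator *Lhx2* fell from 520 ± 111 to 120 ± 43.4 and *Tcf7l1* from 114 ± 25.8 to 44.7 ± 10.8 (adjusted p = 0.000111 and 0.00180), and the others were *Tbx1*, *Krt75*, *Krt6a*, *Nfatc1*, *Sox9*, *Foxc1* and *Krt35*. Without p16 replicate 1 there were 7 called, and without p16 replicate 4 there were 10, of which 1 was higher. In 3 of the 21 the p16 mean was the higher one on the log scale. Among these *Postn* was at 287 ± 90.9 and 501 ± 207 (log2 fold change 0.73, limma adjusted p = 0.272).

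*Sox9*, a stem cell factor of the follicle, fell from 1806 ± 184 to 1116 ± 316 and *Foxc1* from 885 ± 85.4 to 590 ± 131 (adjusted p = 0.0297 and 0.0263), and both calls were lost without control replicate 1, 3 or 4 or p16 replicate 1, at up to 0.0896 and 0.0941. Total count scaling lost both calls, as did leaving out replicate 3 of both groups or control replicates 2 and 4. Over all settings the adjusted p reached 0.141 for *Sox9* and 0.105 for *Foxc1*. *Krt35* had 3, 2, 8 and 1 reads in control and 0 in all p16 samples, and its call was kept in 1 of the 8 fits with a sample left out. *Krt75* and *Nfatc1* lost their calls with control replicates 2 and 4 left out (limma adjusted p = 0.0549 and 0.0723). *Nfatc1* also lost its call with replicate 3 of both groups left out (0.0610).

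Of 13 sebaceous gland genes tested, 9 fell and none rose, with a median of -1.80. *Scd1*, a desaturase of sebum lipids, fell from 768 ± 63.2 to 280 ± 45.5 (adjusted p = 1.11e-05) and *Mgst1*, a glutathione transferase of the gland, from 461 ± 23.5 to 137 ± 46.4 (adjusted p = 3.95e-05). The others were *Cidea*, *Soat1*, *Plin2*, *Far2*, *Elovl3*, *Elovl6* and *Pparg*, and each of the 9 kept its call with each sample left out. With control replicates 2 and 4 both left out *Pparg* lost its call (limma adjusted p = 0.0591). In these pooled cells a smaller share of follicle or gland cells and lower expression within them cannot be told apart.

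**Figure D4:**
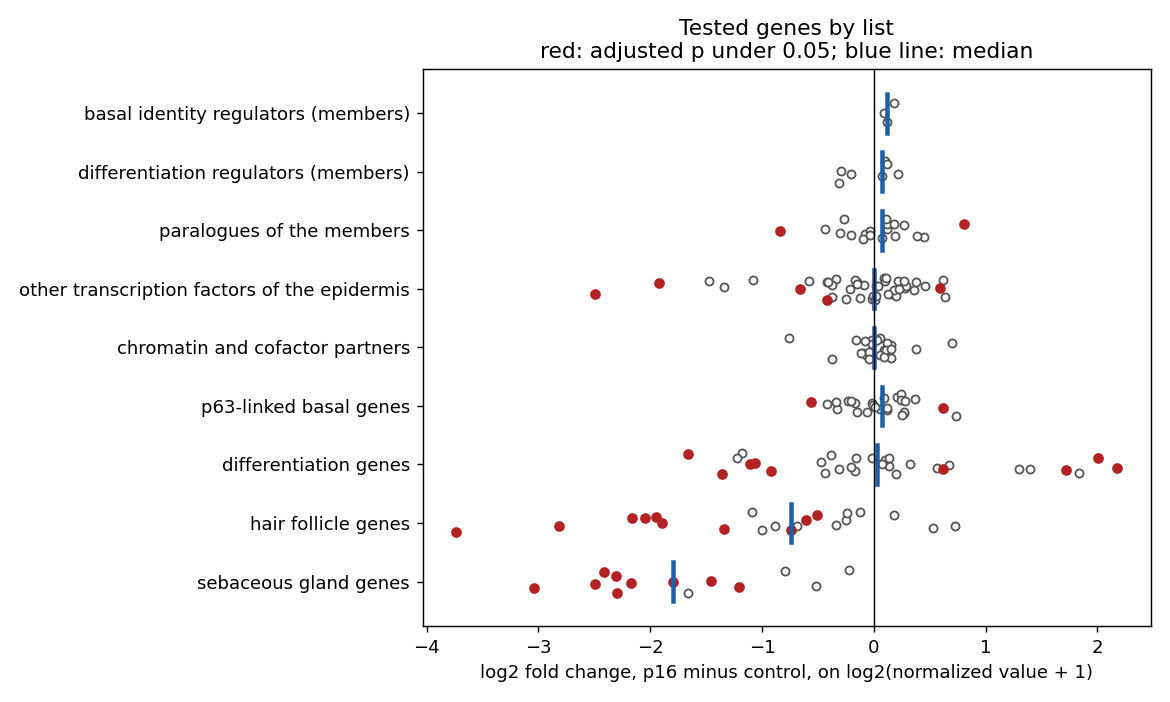
Log2 fold change (p16 minus control, on log2(normalized value + 1)) of each tested gene, by list, with red points for a limma adjusted p under 0.05 and a blue line at the median. The 10 regulators in the upper rows hold no red point, hair follicle and sebaceous gland genes lie mostly left of 0 with medians of -0.74 and -1.80, and differentiation genes spread from -1.66 to 2.18 around a median of 0.02.

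Markers of cells outside the keratinocyte lineage were mostly low in both groups. Of 7 melanocyte markers tested, *Dct* and *Tyrp1*, enzymes of pigment synthesis, fell (adjusted p = 0.0236 and 0.0257). Both calls were lost without control replicate 1 or 4 or p16 replicate 1 or 3, and that of *Tyrp1* also without control replicate 2, with adjusted p-values of up to 0.0745 and 0.107. *Dct* was highest in control replicate 1, at 342.0. Of 6 fibroblast markers *Dcn* alone passed, at 5.85 ± 3.50 and 104 ± 70.6 (adjusted p = 0.000233), while *Lum* was at 0 in every sample. The summed level of 9 fibroblast markers without *Thy1* was 11.6 to 27.5 in control and 42.8 to 222 in p16 samples. *Dcn* alone made up most of the p16 sums, while *Col1a2* was at 17.8, 10.3, 4.2 and 9.2 in control and 1.6, 3.1, 2.7 and 3.3 in p16 samples and did not pass (adjusted p = 0.0571). The part of these cells in the regulators' values was not tested.

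None of 4 T cell, 8 Langerhans and myeloid and 4 endothelial markers passed with limma, and 2, 2 and 0 of them had an unadjusted p under 0.05. The edgeR test after its filter tested only 1, 4 and 1 markers of these lists and called 0. DESeq2 tested 7, 11 and 5 and also called 0. Under an unadjusted 0.05, edgeR and DESeq2 had 1 and 2 T cell markers, 1 and 2 Langerhans and myeloid markers and 0 endothelial markers. *Thy1*, which keratinocytes may also express, was at 706 ± 101 and 1469 ± 1019 and was called by edgeR without a filter (adjusted p = 0.0287). Of the others, *Epcam* was at 1057 ± 103 and 817 ± 136, *H2-Aa* at 27.0 ± 10.5 and 31.8 ± 11.7, and *Flt1* at 8.95 ± 2.40 and 13.8 ± 4.99. With few reads, *Cd3d* was lower in p16 samples, at 11.4 ± 3.18 and 5.28 ± 2.62 (limma adjusted p = 0.172). *Cd207*, also with few reads, was higher in p16 samples, at 0.375 ± 0.435 and 3.05 ± 1.26 (limma adjusted p = 0.0922). The defining genes *Cd8a*, *Lyz2*, *Cdh5* and *Kdr* had no read in any sample.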

How the data were processed

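The authors used an adapted CEL-Seq2 protocol for 3′ mRNA libraries, Cutadapt for trimming and Tophat2 for alignment to GRCm38. The submitters' processing notes also name HTSeq, with no role given, and the use of molecular identifiers is not given in the sources used here. The deposited signal values are read counts over each library's size factor, given to 1 decimal. Columns with the authors' group means and test results were not used. Replicate numbers come from the labels, in which replicate 3 of both groups has another wording of the library protocol. Each sample is a pool of mice. They came from 3 independent experiments, which the labels do not map to samples, so that no batch term could be fitted. The 13 samples of a second profiling were not analysed here.

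Whole reads were recovered for 99.995% of the values (tolerance 0.05 on the normalized scale). The test was that of limma 3.58.1 under R 4.3.3, with a trended eBayes prior and no replicate term, on log2(value + 1) of the 12782 genes whose mean reached 1, with Benjamini-Hochberg adjustment. Fold changes on this scale understate those of low genes. Exact permutation tests were two-sided. Alternatives were a replicate block, total count scaling, a pseudocount of 0.1, all genes unfiltered, samples left out, and edgeR 4.0.16 and DESeq2 1.42.0 on the recovered reads. The members and the gene lists were chosen with earlier results of these data known. The text names every member, the called genes of each list (with none, the 2 with the largest absolute log2 fold change at a mean of at least 10), 8 target genes, and the 3 genes most correlated with the member of smallest p. Other genes were named after their values were seen. Gene positions were read from GENCODE M21 (GRCm38). The scripts were tested on simulated data.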

Additional observations from a re-analysis of the deposited data

Results flagged for a closer look

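In 7 of 115 groups of 4 samples tested, 1 sample lay far from the others by Dixon's test at the 95% level, where chance gives about 1 in 20 groups. Among the lineage regulators this was *Trp63* in both groups. Control replicate 4 was at 620.3, where the other controls were at 707.7 to 725.1, and p16 replicate 3 was at 837.9, where the other p16 samples were at 699.6 to 709.7. No other regulator had such a sample.

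The other 5 were all p16 samples. *Nfatc1*, a factor of bulge cells, was at 215.9 in replicate 1 and at 193.2 to 196.8 in the others. The other 4, genes of gland or pigment cells, were highest in p16 replicate 2, with *Mgst1* at 205.3 against 102.8 to 119.7, *Elovl3* at 17.2 against 4.8 to 5.8, *Soat1* at 10.1 against 4.4 to 4.9 and *Dct* at 47.6 against 9.0 to 14.4.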

How the results depend on the processing

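None of the 10 regulators was called under any of the 17 other settings. Of all genes, 493 were called (159 higher, 334 lower), and 223 (66 and 157) when replicate 3 was left out of both groups. With control replicates 2 and 4 left out, a choice made after the data were seen, 219 were called (52 and 167). Leaving out 1 sample gave 261 to 539 calls, 69 to 196 higher and 177 to 343 lower. Signs turned for *Ovol1* (-0.18 without control replicates 2 and 4, -0.10 to 0.26 with 1 sample left out), *Prdm1* (0.15 with a pseudocount of 0.1, -1.06 to 0.06), *H2-Aa* (-0.02 to 0.42), *Krt10* (0.00 to 0.28), and, without control replicates 2 and 4, *Krt5* (0.07) and *Krt14* (0.10), whose reads did not scale with depth. With 1 sample left out, the difference in the log2 ratio of *Grhl3* to *Grhl1* was 0.19 to 0.53 and that of *Klf4* to *Trp63* -0.06 to 0.07. The cause of these shifts was not tested. Without control replicates 2 and 4 the list of other transcription factors had 1 call, differentiation genes 4, hair follicle genes 5, p63-linked basal genes 0 and sebaceous gland genes 9, *Pparg* not among them. Total count scaling moved the median of all genes to 0.03, the largest shift of any setting.

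With the replicate block 608 genes were called (216 higher, 392 lower) and none of the 10 regulators, *Zfp750* having an adjusted p of 0.136. Same-numbered samples correlated at 0.05, 0.00, 0.05 and 0.08, so that the numbers were not taken to pair the samples, and not every sample correlated best with its own number. With the block *Krt1* (adjusted p = 0.00619) and *Tfap2b* (0.0444) were called and *Krt35* was not. Depth limits *Prdm1*, and the p-values set the group difference against the spread between pooled samples, not between single mice.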

Other observations

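Of the 10 regulators *Zfp750* had the smallest p. Among 9405 genes with a mean of at least 20, the log2 values of *Smtn*, *Cpeb2* and *Kat2b* were most like its own across the 8 samples, with a likeness (Pearson's r) of 0.961, 0.951 and 0.949. The samples span both groups, so that genes lower in p16 samples score high by construction, and the values are given as a description only.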
